A study of Homo sapiens with 40 samples.

Results

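The genes of the nuclear lamina and of the high mobility group (HMG) chromatin proteins were examined in EndoC-βH3 cells, a human beta-like cell line, in a senescent and a non-senescent state. The set held 9 of the 20020 protein-coding genes in the GENCODE 44 annotation: LMNA, LMNB1, LMNB2, LBR, TMPO, HMGB1, HMGB2, HMGA1 and HMGA2. A peak was assigned to a gene when it lay within 2 kb of a start site of the gene, in the gene body, or nearest to that gene among protein-coding genes within 100 kb. This gave 73 regions, namely 32 of the 51489 H3K27ac peaks, 28 of the 51457 CTCF peaks, 13 listed enhancers and 0 of the 2435 regions in the Rb list.

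The cells carry an excisable immortalizing transgene and a recombinase that 4-hydroxytamoxifen activates, and the senescent cells had received 4-hydroxytamoxifen for 3 weeks. Non-senescent cells were labelled as control and kept the transgene, so that excision, the drug and the senescent state cannot be told apart in these groups. The line was labelled wild type, and all libraries came from this single line. Chromatin immunoprecipitation followed by sequencing was carried out for H3K27ac, a modification found at active regulatory DNA, and for CTCF, a DNA-binding protein that anchors chromatin loops, each in 3 senescent and 3 non-senescent libraries. H3K4me1, used with H3K27ac to list enhancers, and the retinoblastoma protein Rb were measured in 2 libraries per state. Every immunoprecipitated library had an input, 40 libraries in all.

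The nuclear lamina is a meshwork of lamin filaments beneath the inner nuclear membrane that holds silent chromatin at the nuclear edge. LMNA encodes the A-type lamins, LMNB1 and LMNB2 the B-type lamins, LBR a membrane receptor that binds B-type lamins and heterochromatin, and TMPO the LAP2 proteins, which bind lamins and chromatin. HMGB1 and HMGB2 are abundant proteins that bend DNA through HMG boxes. HMGA1 and HMGA2 bind AT-rich DNA through AT hooks and hold no HMG box, although they share the HMG name. Loss of lamin B1 and release of HMGB1 from the nucleus are widely used marks of senescence, and HMGA proteins are components of senescence-associated heterochromatin. Several of these genes are known targets of the E2F factors, which Rb restrains.

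All differential values below are the authors' DESeq2 results as deposited, on the log2 scale and senescent over non-senescent, each with its standard error (SE). Peaks were called gained (higher in senescent cells) or lost (lower) where the fold change exceeded 1.5 and the adjusted p was under 0.05 for H3K27ac or under 0.2 for CTCF. The tables give 1 mean over all libraries and no value per library, so single replicates could not be inspected. Mean normalized counts summed to 19239499 over all H3K27ac peaks and 6136424 over all CTCF peaks. At the lamina and HMG genes they ran from 13.5 to 6460 for H3K27ac (median 233) and from 7.18 to 730 for CTCF (median 49.7). The SE of the log2 fold change ran from 0.057 to 0.61 for H3K27ac and from 0.095 to 0.76 for CTCF, so that CTCF changes were less precisely measured. As a check of the cell type, 13 of 13 beta cell genes carried an H3K27ac promoter peak, of which PCSK1 was lost (−1.41), IAPP was gained (0.93) and 11 were not called. Of 15 marker genes of other cell types 4 had such a peak. SST and KRT19 were lost (−0.86 and −0.74), and CPA1 (0.19, adjusted p = 0.017) and CD68 (0.20, adjusted p = 0.011) were higher by less than 1.5-fold. Their part in the results below was not tested.

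To show what lies under the H3K27ac peaks, the 250 bases upstream of a RefSeq start site are given for TMPO and HMGA1, whose promoter peaks were lost, and for LMNB2, whose value fell just short of the fold threshold. RefSeq promoters (GRCh38.p14) were found for 7 of the 9 genes, in 14 entries; HMGB2 and HMGA2 had none. The sequences below lie at chr12:98515323-98515572 on the plus strand for TMPO, chr6:34236623-34236872 on the plus strand for HMGA1, and chr19:2456960-2457209 on the minus strand for LMNB2, and overlap no annotated exon of a protein-coding gene. Capitals mark CCAAT boxes (CCAAT) and GC boxes (GGGCGG) on either strand.
TMPO: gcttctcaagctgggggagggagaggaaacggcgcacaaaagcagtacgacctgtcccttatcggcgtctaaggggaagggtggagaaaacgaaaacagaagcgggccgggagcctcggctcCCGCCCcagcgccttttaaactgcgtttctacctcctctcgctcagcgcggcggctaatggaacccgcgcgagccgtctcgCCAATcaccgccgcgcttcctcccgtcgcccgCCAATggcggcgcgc
HMGA1: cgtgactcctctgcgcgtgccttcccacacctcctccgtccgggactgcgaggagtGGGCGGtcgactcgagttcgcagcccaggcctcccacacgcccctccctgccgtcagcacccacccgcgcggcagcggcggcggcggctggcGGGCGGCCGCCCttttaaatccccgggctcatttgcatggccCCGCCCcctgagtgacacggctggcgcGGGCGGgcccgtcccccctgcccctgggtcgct
LMNB2: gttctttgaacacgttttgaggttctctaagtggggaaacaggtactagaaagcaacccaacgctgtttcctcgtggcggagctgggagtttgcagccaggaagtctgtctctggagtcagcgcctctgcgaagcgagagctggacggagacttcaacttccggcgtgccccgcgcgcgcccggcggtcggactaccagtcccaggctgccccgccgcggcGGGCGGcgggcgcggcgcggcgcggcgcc

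The TMPO window held 2 CCAAT boxes and 1 GC box, the HMGA1 window 5 GC boxes and no CCAAT box, and the LMNB2 window 1 GC box. Among all 35116 RefSeq promoters, 32.0% held a CCAAT box and 42.6% a GC box in the same 250 bases. The upstream window of the HMGB1 canonical start, whose H3K27ac did not pass the test, held 3 CCAAT boxes, more than that of TMPO. An E2F site (TTTCCCGC, TTTCGCGC, TTTGCCGC or TTTGGCGC) was found in 1 of the 14 entries, the most upstream LMNA start, and in 2.79% of all promoters. The CHR element (TTTGAA or TTCGAA), a cell-cycle promoter element, was found in LMNB2 and in 1 HMGB1 entry, and in 14.3% of all promoters. These matches describe letters in a window and are not binding sites.

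Binding levels of H3K27ac at the promoters of these genes were lower in senescent cells or did not pass the test. TMPO, HMGA1 and HMGB2 lost H3K27ac by between 1.67-fold and 2.04-fold. LMNB1, LMNB2, LBR and LMNA were lower by less than 1.5-fold, HMGB1 did not pass the test, and HMGA2 had no promoter peak. Each gene was represented by its promoter peak with the highest mean count. Of the 8 genes with such a peak 3 were lost, against 8.94% of the 13059 protein-coding genes with a promoter peak, and 0 were gained, against 3.15%. At any fold, 7 of the 8 were lower at an adjusted p under 0.05 in the authors' DESeq2 test, against 19.3% of all genes, and 0 were higher, against 24.6%. At an unadjusted p under 0.05, 7 of the 8 were lower and 0 higher, against 22.2% and 28.7% of all genes. All 8 values lay below 0. The median was −0.54 over the 8 genes and 0.04 over all genes. The normalization scales libraries to the typical peak, so these values are relative to the other peaks.

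**Figure D1:**
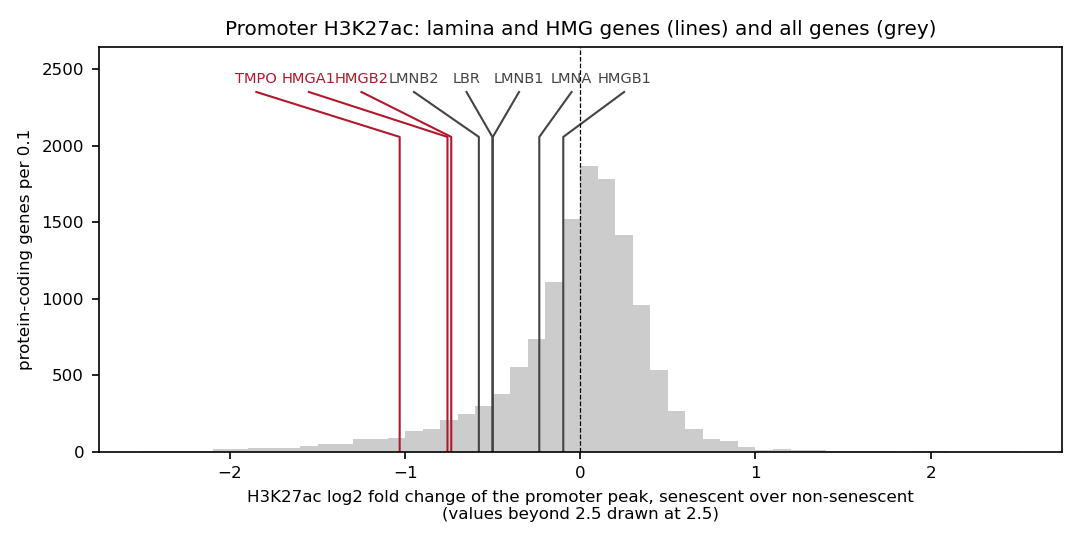
H3K27ac log2 fold change (senescent over non-senescent) of the highest promoter peak of each protein-coding gene, as a histogram of 13059 genes in grey, with the 8 lamina and HMG genes as lines, red where called lost. The lines run from −1.03 (TMPO) to −0.10 (HMGB1), all to the left of 0.

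TMPO had the largest promoter change of the 9 genes among their highest promoter peaks. Its peak (chr12:98513619-98518432, covering the canonical start site and the start of the antisense RNA TMPO-AS1) had a mean of 1218 counts. The state means calculated from the deposited mean and fold change were 1636 counts in non-senescent and 800.4 counts in senescent cells. The log2 fold change was −1.03 (SE 0.070, adjusted p = 3.13e-46, DESeq2), a ratio of 0.489 with a 95% interval from 0.445 to 0.538. Across all genes, 3.61% of promoter peaks had a lower value. It was the single promoter of the 8 that stayed called when the change was tested against a fold change of 1.5 (adjusted p = 2.44e-08). None of the other TMPO peaks was called. A peak 10.5 kb upstream of the start had a log2 fold change of −0.21 (SE 0.087, adjusted p = 0.046), an intron peak had 0.40 (SE 0.15, adjusted p = 0.020) and neither reached the fold threshold. Upstream peaks at 23.6 kb and 58.0 kb had values of 0.08 and 0.04. A further intron peak of 13.5 counts had −0.31, with an SE of 0.61 too wide to show whether it changed.

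LMNB1, the B-type lamin whose loss marks senescent cells, had a broad promoter peak of 6912 bp (chr5:126774932-126781844) with a mean of 2177 counts. The calculated state means were 2550 counts in non-senescent and 1803 counts in senescent cells. The log2 fold change was −0.50 (SE 0.064, adjusted p = 1.59e-13), 1.41-fold lower, and the 95% interval from −0.63 to −0.37 included the fold threshold. A listed enhancer 16.3 kb upstream, inside the divergent RNA LMNB1-DT (chr5:126757562-126760861), was lost, with a log2 fold change of −0.64 (SE 0.097, adjusted p = 5.73e-10). It stood in the enhancer lists of both states. Intron peaks of 25.7 and 26.5 counts had values of 0.26 and 0.30, with SEs of 0.39 and 0.40, and a change of the size seen at the promoter was not detectable there at this depth.

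LMNB2, the other B-type lamin gene, had a promoter peak (chr19:2455569-2457936) with a mean of 222 counts. Its log2 fold change was −0.58 (SE 0.14, adjusted p = 2.03e-04), just short of the threshold of 0.585 in size. The call depended on the setting. LMNB2 was called lost when all values were centred on the median promoter peak (−0.61). Another setting, added after the data were seen, subtracted the trend of the change on GC content over all peaks. There the LMNB2 promoter value was −0.41, further from the threshold, and LMNB2 was not called. A weak peak 5.28 kb upstream was lost at −1.13 (SE 0.47, adjusted p = 0.043) on a mean of 23.2 counts. At the 3′ end of LMNB2 lay a peak at the start of its neighbour TIMM13, with a value of 0.38 (SE 0.090, adjusted p = 1.09e-04).

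LBR, the lamin B receptor, had a single H3K27ac peak, at its canonical start site (chr1:225426586-225429126), with a mean of 292 counts. The log2 fold change was −0.50 (SE 0.13, adjusted p = 4.00e-04), 1.42-fold lower and close in size to that of LMNB1.

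LMNA had 7 peaks, the most of the 9 genes, and 6 of them lay within 2 kb of one of its 13 annotated start sites. The strongest (chr1:156102445-156110052, 6460 counts) covered an alternative start site, lay 4.66 kb upstream of the canonical start and overlapped an enhancer listed in both states. Its log2 fold change was −0.23 (SE 0.057, adjusted p = 1.95e-04), or 1.18-fold lower. The peak over the canonical start (chr1:156114273-156116110, 310 counts) had a value of −0.18 (SE 0.12, adjusted p = 0.23). The most upstream LMNA start was the exception, where a peak of 172 counts (chr1:156082209-156083645) was lost at −1.04 (SE 0.16, adjusted p = 2.87e-09). It also covered the start of MEX3A, which lies 0.108 kb from LMNA on the other strand, and the mark carries no strand, so the change cannot be assigned to either gene. The remaining 4 LMNA peaks held 20.7 to 87.6 counts, with values from −0.62 to 0.47, and did not pass the test.

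Among the HMG box genes, HMGB2 and HMGB1 differed in their calls. HMGB2 had 1 peak, over its canonical start (chr4:173331972-173336653, 906 counts), with calculated state means of 1133 counts in non-senescent and 679.8 counts in senescent cells. It was lost at −0.74 (SE 0.078, adjusted p = 1.29e-19), a ratio of 0.600 with a 95% interval from 0.540 to 0.667. HMGB1 had its canonical promoter peak (chr13:30463062-30467091, 1333 counts) at −0.06 (SE 0.077, adjusted p = 0.55), with a 95% interval from −0.21 to 0.09. Another HMGB1 peak, at the start of its longest transcripts and of the divergent gene USPL1 (chr13:30614902-30620937, 2424 counts), had −0.10 (SE 0.069, adjusted p = 0.26). The 95% interval of HMGB2, from −0.89 to −0.58, did not overlap those of either HMGB1 peak. The difference between HMGB2 and HMGB1 was not tested, and the intervals do not stand in for such a test.

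HMGA1 had its promoter peak (chr6:34236424-34238496, 243 counts) lost at −0.76 (SE 0.13, adjusted p = 1.84e-07), with calculated state means of 306 counts in non-senescent and 181 counts in senescent cells. The GC content of this peak was 72.0%, the highest of the 32, against a median of 45.2% over all peaks. When the trend of the change on GC content over all peaks was subtracted, a setting added after the data were seen, the value was −0.41 (adjusted p = 0.0083) and HMGA1 was no longer called. HMGB2 and TMPO were still called lost, at −0.73 and −1.02. A peak 12.1 kb upstream of HMGA1, listed as an enhancer in senescent cells alone, had −0.40 (SE 0.17, adjusted p = 0.048). A peak at the 3′ end, shared with the start of SMIM29, had 0.31 (SE 0.11, adjusted p = 0.013).

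**Figure D2:**
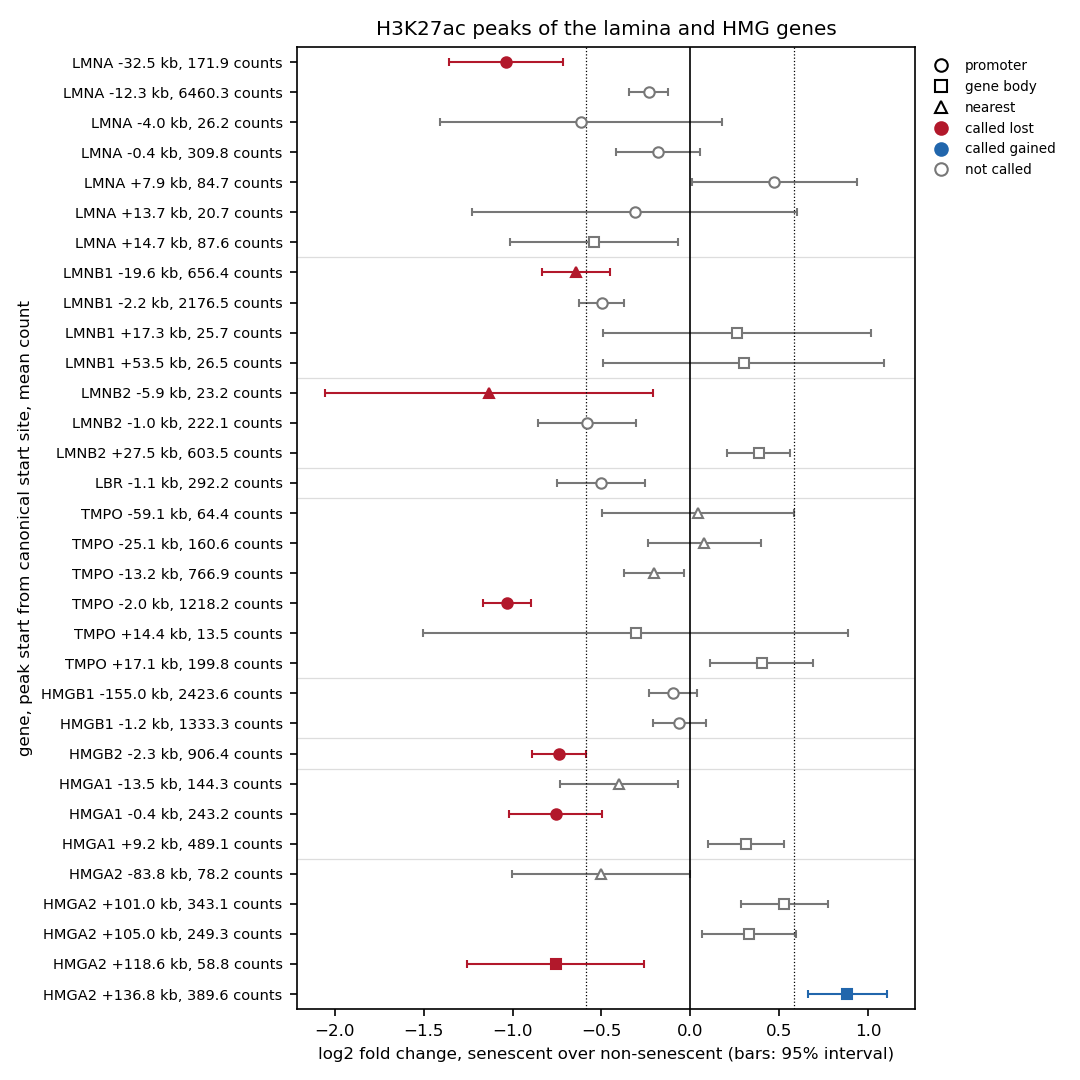
H3K27ac log2 fold change (horizontal axis, senescent over non-senescent, bars show 95% intervals) of the 32 peaks of the lamina and HMG genes, listed by gene with the distance of the peak start from the canonical start site and the mean count. Dotted lines mark a 1.5-fold change; 7 peaks in red were lost, 1 in blue (HMGA2) was gained, and the widest intervals belong to the peaks of fewest counts.

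HMGA2 differed from the other genes in where its H3K27ac lay. It had no peak within 2 kb of its 4 start sites, and its 5 peaks lay at least 82.8 kb from the nearest start. Of the 4 in the gene body, a peak covering an exon near the 3′ end (chr12:65961245-65964386, 390 counts) was gained, at 0.88 (SE 0.11, adjusted p = 1.44e-13). Calculated state means there were 274 counts in non-senescent and 505 counts in senescent cells. This was the single gained peak of the 32, and the enhancer list of senescent cells held the region while that of non-senescent cells did not. An intron peak 17.1 kb before it (chr12:65943126-65944125, 58.8 counts) was lost, at −0.76 (SE 0.26, adjusted p = 0.010), and stood in the non-senescent list alone. A pair of intron peaks in both lists had values of 0.53 (SE 0.13, adjusted p = 1.42e-04) and 0.33 (SE 0.13, adjusted p = 0.038). The HMGA2 gene body thus held changes in both directions within 38.9 kb.

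Over all 32 peaks, 7 were lost, against 13.1% of all H3K27ac peaks, and 1 was gained, against 9.47%. The lost peaks were 4 of 14 promoter peaks, 1 of 11 gene-body peaks and 2 of 7 peaks nearest to a gene. Median log2 fold changes were −0.50 at promoters, 0.31 in gene bodies and −0.40 at nearest peaks, against 0.01 over all peaks. In the gene bodies 8 of 11 values lay above 0, as did 50.6% of all H3K27ac peaks. Of the 11, 6 were higher at an adjusted p under 0.05 at any fold, against 18.9% of all peaks, and these belonged to TMPO, LMNB2, HMGA1 and HMGA2. Those of LMNB2 and HMGA1 are promoters of neighbouring genes. Levels per length also differed between the genes. Mean H3K27ac counts per kb of promoter peak were 849 at LMNA, 402 at HMGB1, 315 at LMNB1, 253 at TMPO, 194 at HMGB2, 117 at HMGA1, 115 at LBR and 93.8 at LMNB2. No spread over libraries was given for these levels, so neighbours in that order cannot be called different. The 3 lost promoters stood between the extremes of this order. The LMNA and HMGB1 levels came from peaks away from the canonical start. Peaks over their canonical starts had 169 and 331 counts per kb, so the order depends on the peak chosen.

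**Figure D3:**
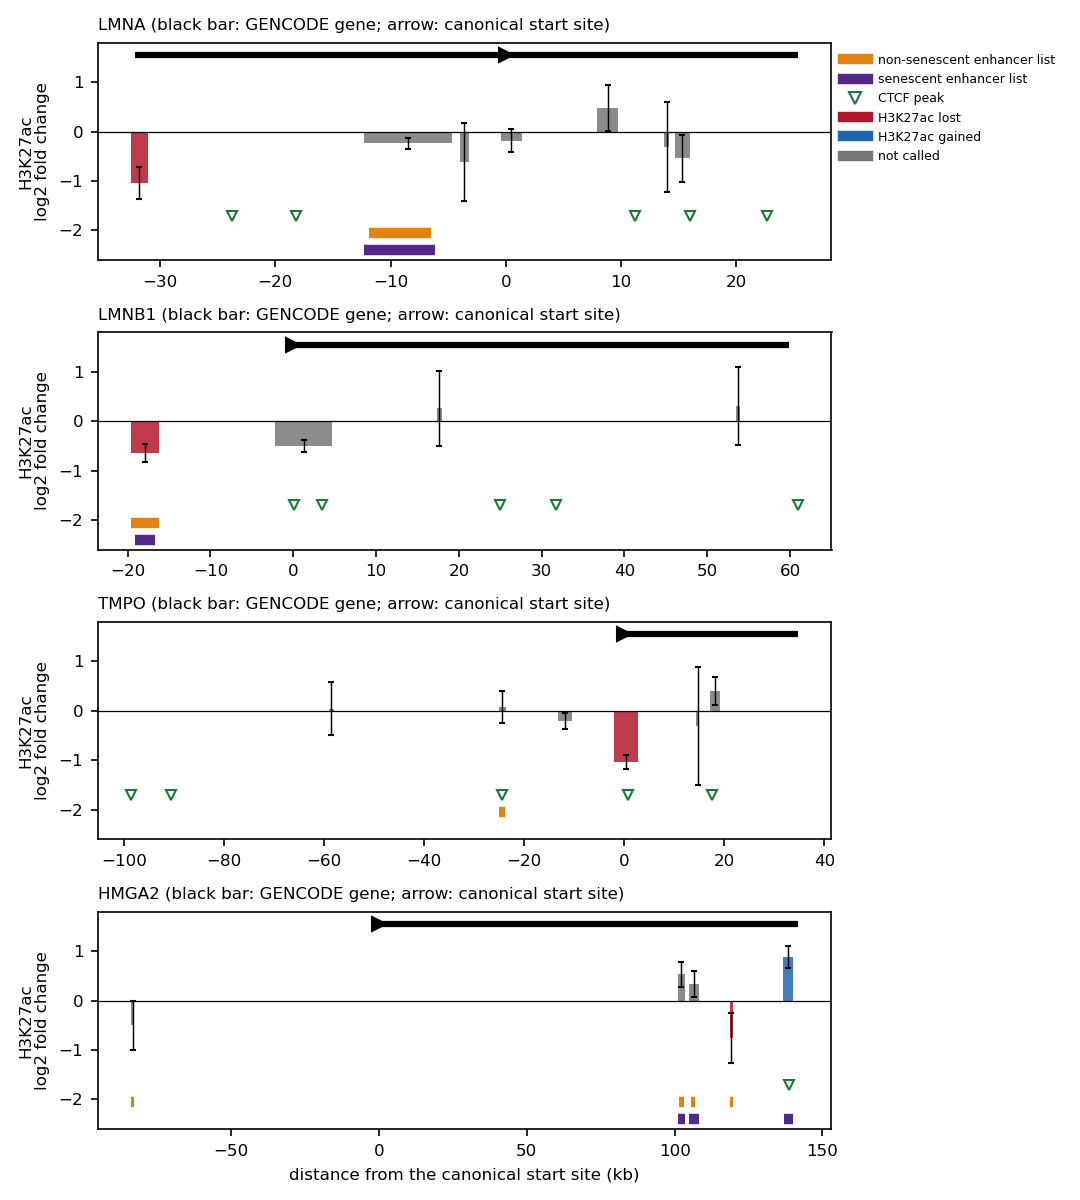
H3K27ac log2 fold change of each peak (bars, drawn to their width; error bars show 95% intervals) along LMNA, LMNB1, TMPO and HMGA2, with distance from the canonical start site in kb, CTCF peaks (triangles) and listed enhancers (orange and purple bars). Loss at TMPO sat on the start site, while the HMGA2 changes sat at 101 kb and more downstream of it.

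Enhancers were listed by the authors from overlapping H3K27ac and H3K4me1 for each state. At these genes the non-senescent list had 7 of its 14886 regions and the senescent list 6 of its 13076, and 4 regions of each overlapped a region of the other. The 4 shared enhancers were 1 at LMNA, 1 at LMNB1 and 2 in HMGA2. Those in the non-senescent list alone were the HMGA2 intron region, a region 82.8 kb upstream of HMGA2 (H3K27ac −0.50, SE 0.26, adjusted p = 0.10) and a region 23.8 kb upstream of TMPO. The TMPO region had an H3K27ac value of 0.08 (SE 0.16, adjusted p = 0.74), so its absence from the senescent list was not matched by a lower H3K27ac value. In the senescent list alone were the HMGA2 3′ region and the region upstream of HMGA1, whose H3K27ac value was below 0 as given above. LBR, LMNB2, HMGB1 and HMGB2 had no listed enhancer.

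The Rb list holds regions that the authors called in senescent over non-senescent libraries. None of its 2435 regions lay at these genes. The nearest to a gene body was 150 kb from HMGA2, followed by 361 kb from LMNA and 392 kb from LMNB1. For LBR, TMPO and HMGA1 it lay 1385 kb, 1500.2 kb and 1456 kb away. Distances of 894 kb for HMGB1, 12.7 Mb for HMGB2 and 17.4 Mb for LMNB2 completed the set. The list holds called regions alone, so a region below its cutoff would not appear. The share of all genes with a listed Rb region was not calculated, so the absence cannot be read as particular to these genes.

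CTCF binding at these genes changed at 1 of 28 peaks. Of the 21 with an adjusted p in the authors' DESeq2 table, 1 was lost and 0 were gained. Among all 39485 CTCF peaks with an adjusted p, 4.28% were lost, close to that share, and 2.99% were gained. At an unadjusted p under 0.05, 3 of the 28 were lower, against 8.33% of all CTCF peaks, and 1 was higher, against 7.63%. The lost peak lay in the HMGA1 intron 869 bp from the start site, inside the lost H3K27ac promoter peak (chr6:34237742-34238489, 63.8 counts), with a log2 fold change of −0.81 (SE 0.29, adjusted p = 0.086). Its GC content was 68.2%, and after the trend of the CTCF change on GC content was subtracted the value was −0.43 (adjusted p = 0.57). The 11061 CTCF peaks at promoters in general had a median of −0.17, with 489 of them lost and 54 gained. The closest match of the HMGA1 peak to the CTCF core motif had 3 mismatches, so no site is shown for it.

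LMNA carried the strongest CTCF peaks of the 9 genes, in its gene body and near its upstream start sites. The largest (chr1:156129716-156131751, 730 counts) had a log2 fold change of −0.03 (SE 0.095, adjusted p = 0.90), and peaks of 516 and 493 counts had −0.15 (SE 0.11) and 0.09 (SE 0.11). The 95% intervals of these 3 peaks included 0. An upstream peak near LBR (chr1:225474417-225475637, 328 counts) had −0.38 (SE 0.13, adjusted p = 0.064), which passed the p threshold but not the fold threshold. The CTCF peaks at the TMPO, LMNB1, LMNB2 and distal HMGB1 start sites had values of −0.28 (SE 0.23), −0.18 (SE 0.34), −0.52 (SE 0.42) and −0.23 (SE 0.31). None of these passed the test. The CTCF peak within the gained HMGA2 region had 0.17 (SE 0.32). In overlapping peaks near the start, CTCF and H3K27ac gave −0.28 and −1.03 at TMPO, and −0.81 and −0.76 at HMGA1. The signs were opposite in the pairs at the LMNB1 promoter peak (CTCF 0.33 and H3K27ac −0.50), upstream of LMNB2 (0.30 and −1.13) and in the TMPO intron (−0.10 and 0.40). All other overlapping pairs had the same sign in both marks. Of the CTCF peaks in these pairs, that of HMGA1 alone was called.

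The 12-letter CTCF core motif was found without mismatch in 3 of the 28 peaks, against 13.5% of all CTCF peaks, and with at most 1 mismatch in 12, against 47.2%. The exact matches are shown with the core in capitals. They lie in the LMNA peaks of 493 and 516 counts and in a peak upstream of TMPO. These matches describe letters, and binding at them was not tested. On the plus strand of hg38, the first base of the core lies at chr1:156090881 and chr1:156096783 for LMNA and at chr12:98425006 for TMPO.
LMNA, peak of 493 counts: ttggCCACCAGGTGGCgccg
LMNA, peak of 516 counts: tgggCCAGCAGGTGGCgcca
TMPO, peak of 191 counts: acggCCACCAGATGGCctca
The peak with the TMPO site had a log2 fold change of 0.34 (SE 0.16, adjusted p = 0.22).

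**Figure D4:**
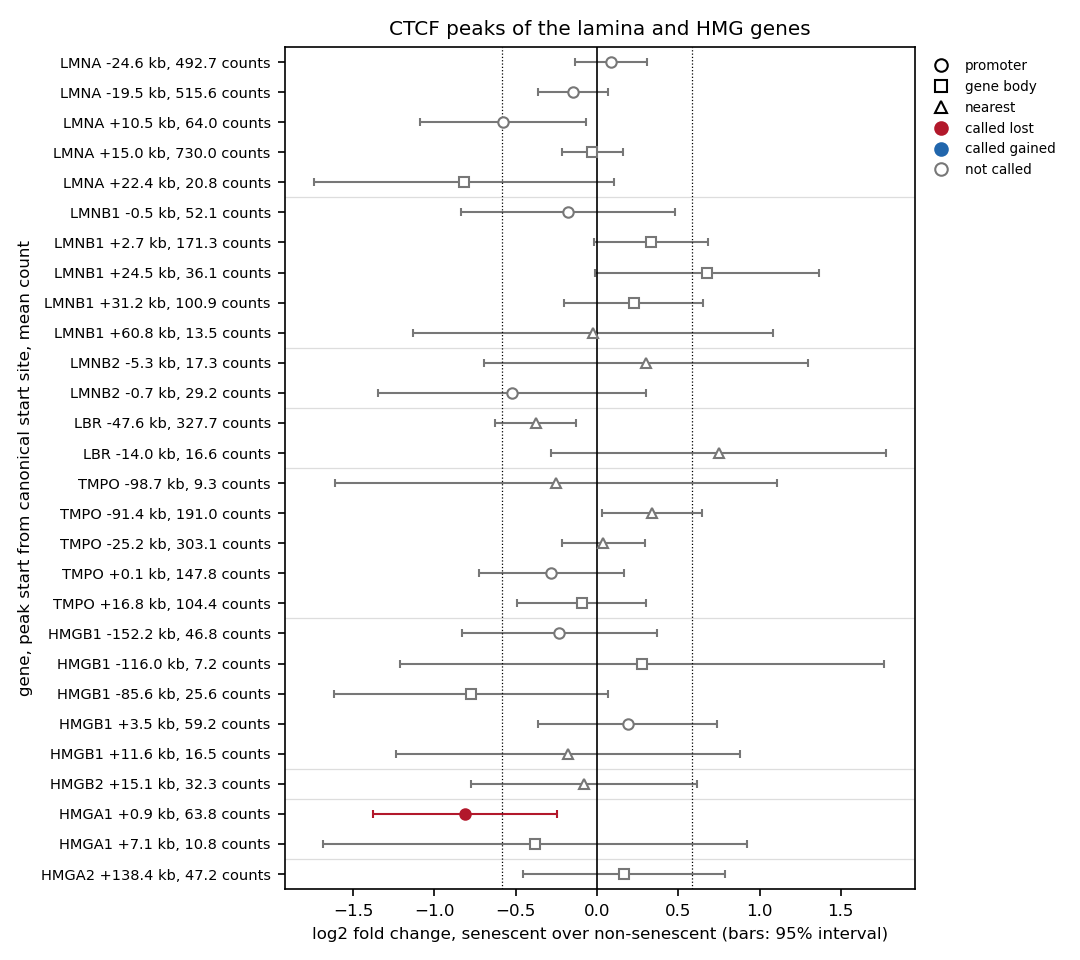
CTCF log2 fold change (horizontal axis, senescent over non-senescent, bars show 95% intervals) of the 28 peaks of the lamina and HMG genes, listed by gene with the distance of the peak start from the canonical start site and the mean count. The HMGA1 peak in red was the single peak called; the LMNA peaks of 493 to 730 counts have the narrowest intervals and lie near 0.

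To set these genes beside related ones, the promoter peaks of other nuclear envelope, HMG and heterochromatin genes were examined. Of 29 nuclear envelope and lamina-processing genes, 3 were lost and 1 was gained, with a median of 0.02. The lost ones were ICMT (−0.70, SE 0.16), which methylates prenylated lamins, SYNE2 (−0.69, SE 0.090), a nesprin that links the nucleus to the cytoskeleton, and NEMP1 (−0.68, SE 0.13), an inner membrane protein. SYNE3, another nesprin, was gained (0.78, SE 0.13). The lamin-binding LEM-domain genes EMD, LEMD2 and LEMD3, relatives of TMPO, had −0.21 (SE 0.084), 0.45 (SE 0.077) and −0.07 (SE 0.072) and were not called. TOR1AIP1 and TOR1AIP2 shared 1 peak.

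Of 26 genes listed as HMG box or HMGN genes, 24 had a promoter peak and HMGB4 and TOX2 had none. HMGXB4 (−0.64, SE 0.096) and HMGB3 (−0.63, SE 0.11), a close relative of HMGB2, were lost and 0 were gained, with a median of 0.03. By the authors' unadjusted DESeq2 p under 0.05, 6 of the 24 were lower and 7 were higher, near the 22.2% and 28.7% of all genes. SSRP1, a subunit of the FACT histone chaperone, had −0.54 (SE 0.13, adjusted p = 1.19e-04) below the fold threshold. CAPN15 (0.58, SE 0.076) and BBX (0.47, SE 0.088) were higher by less than 1.5-fold. CAPN15 encodes a calpain and is not an HMG gene, so the counts and median of this list include a gene from outside the family. Of 19 heterochromatin genes, EHMT1, a histone H3 lysine 9 methyltransferase, was gained (0.90, SE 0.086) and 0 were lost. At an unadjusted p under 0.05, 5 of the 19 were lower and 4 higher, against the same shares of all genes. The heterochromatin protein 1 genes CBX1, CBX3 and CBX5 had −0.32 (SE 0.10), −0.22 (SE 0.069) and −0.31 (SE 0.069), lower by less than 1.5-fold. MACROH2A1 was higher by less than 1.5-fold (0.31, SE 0.074). The median of this list was 0.07. The counts of lost and gained promoters compare with 8.94% lost and 3.15% gained over all genes.

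**Figure D5:**
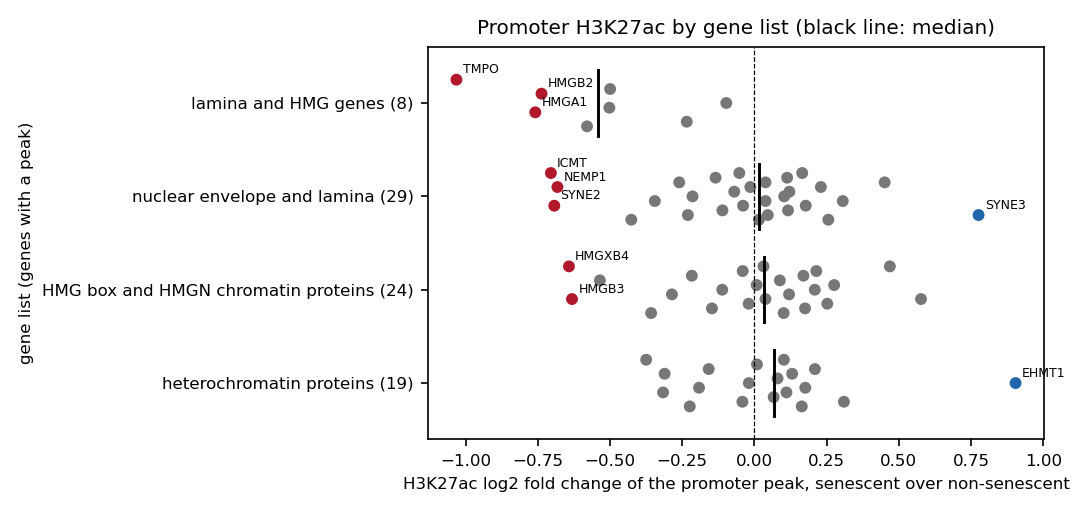
H3K27ac log2 fold change of the promoter peak of each gene (points, senescent over non-senescent) in the lamina and HMG set and in 3 related gene lists, red where lost and blue where gained, with the median of each list as a black line. The median was −0.54 for the lamina and HMG set and between 0.02 and 0.07 for the related lists.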

How the data were processed

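Per the study's methods, the authors aligned trimmed reads to hg38 with Bowtie2, used HOMER to call peaks of the histone marks and MACS2 to call those of CTCF and Rb, and compared read counts in peaks between states with DESeq2. Tool versions are not given in the sources used here. The authors' mean signal for each peak is the mean over libraries of counts divided by DESeq2 size factors. The fold change deposited with it is on the log2 scale, and the Wald score deposited beside it is that value over its standard error. The p-value and its Benjamini-Hochberg adjusted form are the authors'; 7 of the 28 CTCF peaks at these genes had no adjusted p and stayed uncalled. The deposited enhancer and Rb lists hold positions alone. No table holds values per library, so no model was refitted, the depth of single libraries is unknown, and the test planned for raw counts was not run; 0 columns were set aside as belonging to another series. These tables are themselves the authors' comparison of senescent with non-senescent libraries, so every fold change, standard error and p in the report is theirs, except the values under the alternatives. No source says that replicates came from separate cultures, so p-values measure the spread between these libraries, which may be technical.

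Peaks were assigned to genes with Python 3.11.15 and GENCODE 44, using start sites of protein-coding transcripts; 24 of 24 chromosome names matched hg38. Overlap meant at least 1 bp. Intervals are the log2 fold change ± the normal quantile times its standard error. State means were calculated from the mean and the fold change, weighting both states equally. GC trends were lowess fits (statsmodels 0.14.6). The statistics were tested on simulated data. The 9 genes, the related lists and the tests were chosen with earlier results of these data known. Named genes were the 9, of each related list up to 4 lowest and 4 highest called promoters, every called peak outside promoters, and the strongest peak of each gene. The uncalled list members EMD, LEMD2, LEMD3, SSRP1, CAPN15, BBX, CBX1, CBX3, CBX5 and MACROH2A1 and the cell type markers were named for their function or after their values were seen. Alternatives were other p and fold thresholds, a test against the fold threshold, centring, a minimum mean count, other windows and distances, and GC correction.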

Additional observations from a re-analysis of the deposited data

How the results depend on the processing

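No paired analysis was possible because the tables hold no values per library, and for the same reason leaving out single replicates was not run. Of 77 counts recomputed under alternatives, 55 stayed within 1.5 times the value reported, and these include counts of 0 that stayed 0. Of 70 values of single peaks 0 changed sign. Threshold settings leave the value itself as it was, so no sign change could occur under them. Only centring, the choice of peak and GC correction could alter a value. With a fold change above 2, lost peaks numbered 1 at the 8 promoters, 3 among the 32 H3K27ac peaks and 0 at the related genes, and gained peaks 0 among the 32 and 0 at the related genes. Without a fold threshold, lost peaks numbered 7, 13 and 14, and gained peaks 6 among the 32 and 13 at the related genes. In the test against a fold change of 1.5, lost peaks numbered 1, 1 and 0, and gained peaks 0 among the 32 and 1 at the related genes. Subtracting the GC trend of H3K27ac, added after the data were seen, left 2 lost promoters of 8, 5 lost peaks of 32 and 3 lost promoters at the related genes. Without peaks at another gene's start site, also added then for promoters, 3 promoters stayed lost. Centring on the median promoter peak, a shift of 0.03, added LMNB2 to the lost promoters. The single lost CTCF peak, at HMGA1, was 0 at an adjusted p under 0.05, above 2-fold, after GC correction, against a fold change of 1.5 and among peaks with the core motif, and lost peaks were 2 without a fold threshold, LBR being the other. It stayed called (adjusted p = 0.11) when p was adjusted over all peaks. Wide intervals at peaks under about 50 counts limit what could be detected there.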

Other observations

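The promoters next to the lamina and HMG genes were also read. SEMA4A, a semaphorin gene 7.29 kb beyond the 3′ end of LMNA, had a promoter peak of 77.5 counts that was lost at −1.43 (SE 0.25, adjusted p = 8.26e-08, DESeq2). At HMGB2, the neighbour GALNT7, a glycosyltransferase gene 7.41 kb away, had −0.54 (SE 0.13, adjusted p = 1.14e-04), and SAP30 on the other side, a subunit of the SIN3 histone deacetylase complex, had −0.03 (SE 0.088, adjusted p = 0.80). At TMPO, the neighbour SLC25A3, 43.2 kb away, had 0.14 (SE 0.086, adjusted p = 0.20), and NEDD1, 1562 kb away on the other side, had −0.27 (SE 0.10, adjusted p = 0.022). At LBR, DNAH14, 2.21 kb away, had −0.05 (SE 0.11, adjusted p = 0.77), and ENAH, 57.8 kb away, had −0.39 (SE 0.096, adjusted p = 2.09e-04). MARCHF3, 30.7 kb from LMNB1, had −0.46 (SE 0.16, adjusted p = 0.016), and GRM4, 81.3 kb from HMGA1, had −0.36 (SE 0.11, adjusted p = 0.0047). UBE2L5, next to HMGB1, and LLPH, next to HMGA2, had 0.27 (SE 0.12, adjusted p = 0.061) and 0.18 (SE 0.12, adjusted p = 0.26). TEX43, GADD45B and MSRB3 had no promoter peak, and MEX3A, TIMM13, USPL1 and SMIM29 shared a peak with a gene of the set. Differences between these genes and their neighbours were not tested. The neighbours were named after their values were seen.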
